A study of Drosophila melanogaster with 24 samples.

Results

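The Turandot genes of *Drosophila melanogaster* are described here over 8 groups of male flies that differed in mean rearing temperature, temperature regime and heat exposure. The members are the genes whose array probe set carries a single symbol made of Tot and 1 capital letter. That gave 5 genes, *TotB*, *TotC*, *TotE*, *TotF* and *TotZ*, out of 11982 genes with a probe set of 1 symbol, and each member was measured by 1 probe set. The reference gene table holds 8 Turandot genes, and *TotA*, *TotM* and *TotX* had no probe set assigned to them by symbol and were not analysed here. Among the members, *TotC* was 4.21-fold higher in flies reared at a mean of 25 °C than at 15 °C. The other 4 read low in all groups, near or below the first quartile of all probe sets.

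Turandot proteins are small, secreted factors of the fly's humoral stress response. They are made mainly in the fat body, the organ that serves the fly as liver, adipose tissue and source of immune peptides, and are released into the hemolymph. Heat, cold, injury, bacterial infection and other stresses are known to induce them, and *TotA*, the best studied, needs the JAK/STAT pathway for its induction, with further input from the kinase Mekk1 and from the NF-kappaB factor Relish of the Imd pathway. Induction of *TotA* by heat is slow compared with that of heat shock genes and continues after the heat has ended. In the reference annotation *TotC* and *TotB* are next to each other on chromosome arm 3R, with *TotA* as the other neighbour of *TotC* and *TotZ* as that of *TotB*. *TotF* and *TotE* are neighbours on chromosome arm 2L.

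Each array measured RNA of whole adult males, pooled from a vial, of a laboratory stock founded from field-collected flies. The males had developed at a constant 15 °C or 25 °C, or under a daily fluctuation around a mean of 15 °C or 25 °C. All were then moved to 20 °C, and were frozen either from 20 °C or after the temperature had been raised to 35 °C at 0.1 °C per min. The 8 groups have 3 arrays each and are named below by mean temperature, regime and assay temperature. Each combination of mean temperature and regime was produced by a single cabinet. Neither mean temperature nor regime can therefore be told apart from cabinet, and the spread between arrays is that between pools of flies from 1 cabinet. In RNA of whole flies, fewer cells of a type and less RNA per cell cannot be told apart.

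The array 15 °C fluctuating, 35 °C, replicate 3, was left out because it had failed. It correlated at no more than 0.22 with any other array, and its probe sets had an SD of 1.21, whereas those of the remaining arrays had 2.68 to 2.76. A second array stood apart and was kept. On 15 °C constant, 20 °C, replicate 1, the mean over 15 egg shell and yolk genes was 9.38, against 4.32 for the lowest array of its group, and all arrays of the other groups lay between 4.29 and 4.85. The labelled whole males otherwise carried transcripts of both male organs examined, with list means of at least 11.89 for 14 accessory gland genes and of at least 12.58 for 10 testis genes.

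*TotC* was expressed at intermediate to high values and spread over 6.03 log2 units between its lowest and highest array. The values are log2 GC-RMA expression values, in which 1 unit is a doubling. In 15 °C constant, 20 °C flies the 3 arrays read 6.30, 8.59 and 7.82. In 15 °C constant, 35 °C flies they read 6.57, 6.56 and 6.61. The arrays of the ramped group were nearly equal and lay within the range of the unramped group, whose values were far apart, with the lowest value on the array that carried egg shell transcripts. In 15 °C fluctuating, 20 °C flies the values were 7.56, 7.53 and 7.68, and the 2 arrays of 15 °C fluctuating, 35 °C flies read 7.57 and 7.42. Both fluctuating groups from 15 °C were thus close to each other and narrow.

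Among flies from a mean of 25 °C the *TotC* values were higher. In 25 °C constant, 20 °C flies the arrays read 9.35, 8.91 and 9.19. In 25 °C constant, 35 °C flies they read 8.79, 9.70 and 10.24. All of these arrays lay above the highest array from 15 °C. In 25 °C fluctuating, 20 °C flies the values were 8.32, 9.35 and 7.75. In 25 °C fluctuating, 35 °C flies they were 9.02, 9.64 and 12.33. The last of these, replicate 3, was the highest *TotC* value of the data set and stood 2.68 above the next array of its group. The within-group SD of *TotC* was 0.87, against a median of 0.13 over all probe sets, and only 37 of 18769 probe sets had a larger one.

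**Figure D1:**
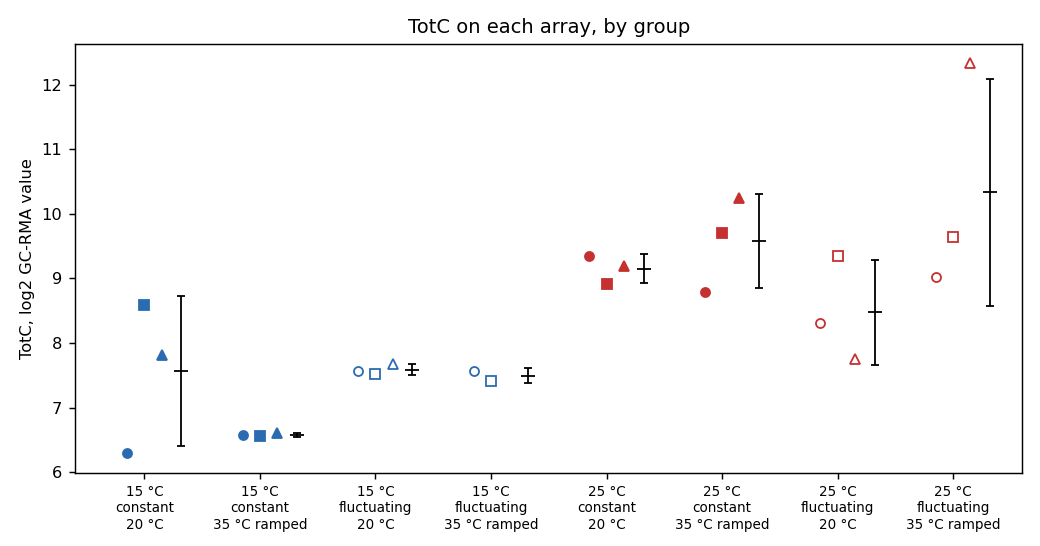
TotC on each of the 23 arrays, as log2 GC-RMA values, by group. Circles, squares and triangles are replicates 1, 2 and 3, blue is a mean of 15 °C and red 25 °C, filled symbols are constant and open symbols fluctuating regimes, and black bars give the group mean ± SD (n = 3 arrays, 2 for 15 °C fluctuating, 35 °C). Of the 12 arrays from 25 °C, 10 lie above the highest array from 15 °C (8.59), and the array at 12.33 stands apart from its group.

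Ordered by group mean, the 4 groups from 15 °C were below the 4 groups from 25 °C. The lowest was 15 °C constant, 35 °C, with 6.58 ± 0.028 (SD, n = 3 arrays), whose range did not overlap that of the next group. Then followed 15 °C fluctuating, 35 °C, with 7.49 ± 0.11 (n = 2), 15 °C constant, 20 °C, with 7.57 ± 1.17 (n = 3), and 15 °C fluctuating, 20 °C, with 7.59 ± 0.080 (n = 3), each overlapping its neighbour. The groups from 25 °C began at 8.48 ± 0.81 (n = 3) in fluctuating flies at 20 °C, which did not overlap the preceding group. Its range of 7.75 to 9.35 did overlap that of 15 °C constant, 20 °C flies (6.30 to 8.59), which also held the range of the lowest group. The groups from 25 °C went on with 9.15 ± 0.22 and 9.58 ± 0.73 in constant flies at 20 and 35 °C, and ended at 10.33 ± 1.76 in fluctuating flies at 35 °C (n = 3 each). Neighbours among these 4 groups overlapped.

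The first comparison asks whether mean temperature alters expression. *TotC* was higher at 25 than at 15 °C in all 4 contrasts, and passed the test in 3 of them. It was higher by 2.997 ± 0.62 log2 units in constant flies at 35 °C (standard error, 7.98-fold, adjusted p = 0.00040, limma), by 2.84 ± 0.69 in fluctuating flies at 35 °C (7.14-fold, adjusted p = 0.0036) and by 1.58 ± 0.62 in constant flies at 20 °C (2.99-fold, adjusted p = 0.044). In fluctuating flies at 20 °C the difference was 0.88 ± 0.62 (adjusted p = 0.30), with a 95% confidence interval from -0.40 to 2.17. The ranges of the 2 groups did not overlap in any of these contrasts, and in the last the nearest arrays read 7.68 and 7.75. How often such ranges are apart over all probe sets was not counted for any contrast. Averaged over the 4 contrasts, *TotC* was higher at 25 °C by 2.07 ± 0.32 (95% confidence interval 1.41 to 2.74, adjusted p = 7.8e-06).

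None of the other 4 Turandot genes passed in a single contrast of mean temperature, so that 1 of 5 members was called in each contrast but that of fluctuating flies at 20 °C, which had 0. Over all 18769 probe sets the share called in constant flies was 43% for the 20 °C assay and 43.6% for the 35 °C assay. In fluctuating flies it was 35.3% and 33.1%, in the same order. A call at 1 of 5 members is thus no larger a share than over probe sets in general. In size, the *TotC* differences of 0.88 to 2.997 stood beside a median absolute change over all probe sets of 0.17 to 0.21 in these contrasts. Leaving out the array with egg shell transcripts lowered the *TotC* difference in constant flies at 20 °C to 0.95 (adjusted p = 0.25). Leaving out the array at 12.33 lowered that in fluctuating flies at 35 °C to 1.84 (adjusted p = 0.019).

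*TotF* was the only other member with a call, and only in the mean over the 4 contrasts. It was higher at 25 °C by 0.16 ± 0.0625 log2 units (1.12-fold, adjusted p = 0.031). Its values ran from 3.71 to 4.39 at 15 °C and from 3.93 to 4.54 at 25 °C, so that most arrays overlapped, and in fluctuating flies at 20 °C its change was -0.099. In this mean, 2 of 5 members were called higher and 0 lower, where 28.9% of all probe sets were called higher and 27.1% lower. The *TotF* call was kept in 14 of 23 fits that left out 1 array (adjusted p at most 0.12), and the within-group SD of *TotF* was also 0.16.

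The second comparison asks whether a fluctuating regime alters expression at the same mean temperature. No Turandot gene was called in any of the 4 contrasts by limma, where 2.16% and 2.22% of all probe sets were called at 15 °C (20 and 35 °C assay) and 0.938% and 1.05% at 25 °C. At an unadjusted p under 0.05 the count was 0 as well. For *TotC* the change with fluctuation at 15 °C was 0.024 at 20 °C (95% confidence interval -1.26 to 1.31) and 0.91 at 35 °C (-0.52 to 2.35, adjusted p = 0.55). The ranges of the latter pair of groups did not overlap (6.56 to 6.61 and 7.42 to 7.57). At 25 °C it was -0.67 at 20 °C (-1.96 to 0.61) and 0.75 at 35 °C (-0.53 to 2.04), and without the array at 12.33 the value at 35 °C was -0.24. These intervals are wide, and include a doubling of *TotC* in 3 of the 4 contrasts. Their width rests on a spread pooled over all 8 groups. The ramped constant and fluctuating groups from 15 °C had SDs of only 0.028 and 0.11. In the mean of the 4 contrasts *TotC* had a change of 0.25 ± 0.32 (-0.41 to 0.92, adjusted p = 0.65), while 0 members were called in either direction and 8.82% of all probe sets were called higher and 6.41% lower.

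The third comparison asks what the heat ramp altered. *TotC* rose in 25 °C fluctuating flies, by 1.86 ± 0.62 log2 units (3.62-fold, adjusted p = 0.043, limma), from 8.48 ± 0.81 to 10.33 ± 1.76 (SD, n = 3 arrays each). The ranges of both groups overlapped, and without the array at 12.33 the change was 0.86 (adjusted p = 0.30). In the other 3 regimes its change did not pass: -0.99 ± 0.62 in 15 °C constant flies (adjusted p = 0.36), -0.096 ± 0.69 in 15 °C fluctuating flies and 0.43 ± 0.62 in 25 °C constant flies. The ranges overlapped in each of these as well. The call in 25 °C fluctuating flies was kept in 10 of 23 fits that left out 1 array.

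Of the 5 members, 1 was called with ramping in 25 °C fluctuating flies and 0 in each of the other regimes. Over all probe sets the share called was 14.5% (constant) and 13.5% (fluctuating) at a mean of 15 °C, and 18.5% and 16.6% at 25 °C. In the mean over the 4 contrasts no member was called by limma, or had an unadjusted p under 0.05, while 16.2% of all probe sets were called higher and 17% lower, and *TotC* had a change of 0.30 ± 0.32 (95% confidence interval -0.36 to 0.96). Heat shock genes in the same flies set the scale of the ramp: all 8 measured rose, by a median of 3.36 log2 units. Their list mean was 12.88 to 12.95 on the 3 arrays of 25 °C fluctuating flies at 35 °C, so that the array with *TotC* at 12.33 did not stand apart in it.

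**Figure D2:**
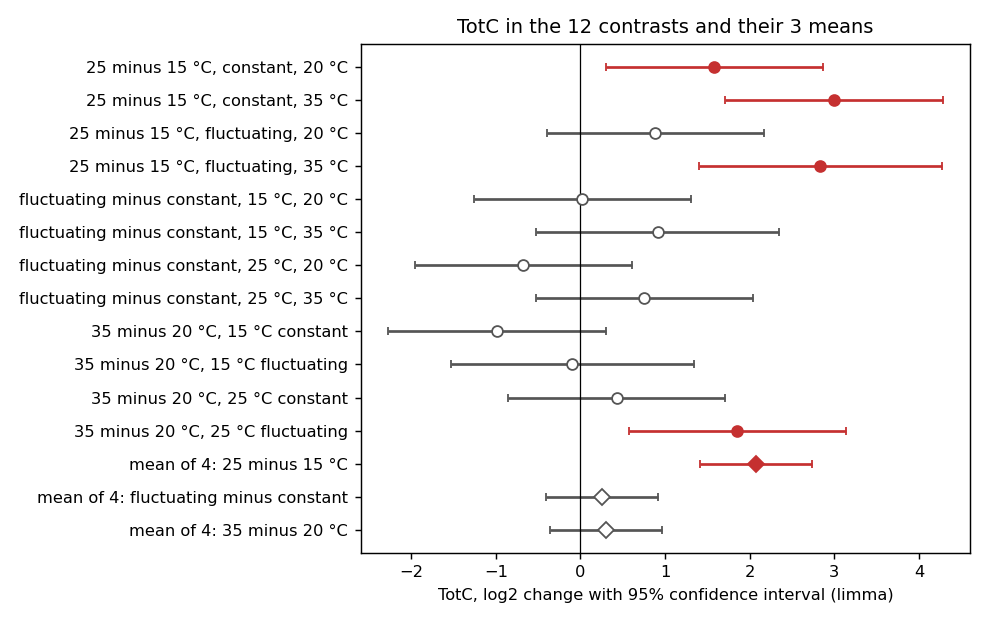
Log2 change of TotC with its 95% confidence interval (limma, 23 arrays) in the 12 contrasts (circles) and in their 3 means (diamonds). Filled red symbols have an adjusted p under 0.05: 3 of the 4 contrasts between mean temperatures and their mean of 2.07, and ramping in 25 °C fluctuating flies (1.86).

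The difference between contrasts was tested as well. No member was called by limma in any of 6 interactions. Over 5 genes and 6 interactions, 5 values had an unadjusted p under 0.05, 3 of *TotB* and 1 each of *TotC* and *TotF*. All 5 use the arrays of 25 °C fluctuating flies at 35 °C, so they are not separate from each other. The share of all probe sets at an unadjusted p under 0.05 was not counted. The *TotB* values were 0.53 and 0.59 for ramping in fluctuating flies and for fluctuation at 35 °C, each at 25 against 15 °C, and 0.59 for ramping at 25 °C in fluctuating against constant flies (adjusted p = 0.30 to 0.97). As estimates, the *TotC* change with ramping was larger at 25 than at 15 °C by 1.95 ± 0.92 log2 units in fluctuating flies (95% confidence interval 0.025 to 3.88, adjusted p = 0.68) and by 1.41 ± 0.87 in constant flies (-0.40 to 3.23, adjusted p = 0.65). Between fluctuating and constant flies the ramp response of *TotC* differed by 0.89 ± 0.92 at 15 °C and by 1.43 ± 0.87 at 25 °C, and the effect of fluctuation at 25 °C differed from that at 15 °C by -0.70 ± 0.87 at 20 °C and by -0.16 ± 0.92 at 35 °C. Over all probe sets 0.65% and 0.0693% were called for ramping by mean temperature (constant and fluctuating), 0.0746% and 0.032% for fluctuation by mean temperature (20 and 35 °C), and 0% in both interactions of ramping with regime. That *TotC* passed for ramping in 1 regime and not in 3 is thus not shown to be a difference between regimes.

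*TotB*, *TotE*, *TotF* and *TotZ* read between 3.21 and 4.54 on all 23 arrays. The first quartile of all probe sets of an array, taken as a mark of the low end of the signal, lay at 3.95 to 4.16. *TotE* was below it on 23 of 23 arrays and *TotZ* on 22, *TotB* on 11 and *TotF* on 3. The group means of *TotE* spanned 0.19 log2 units, those of *TotZ* 0.20, those of *TotB* 0.34 and those of *TotF* 0.43, where those of *TotC* spanned 3.75. The 95% confidence intervals of their mean changes lay between -0.24 and 0.29 for all 3 factors. A change below the low end of the signal was not detectable.

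*TotB* group means ran from 3.86 ± 0.12 in 25 °C constant flies at 35 °C to 4.196 ± 0.22 in 25 °C fluctuating flies at 35 °C (SD, n = 3 arrays each). Between them lay 3.89 ± 0.18 (15 °C fluctuating, 35 °C, n = 2), 3.90 ± 0.089 (25 °C fluctuating, 20 °C), 4.11 ± 0.21 (15 °C fluctuating, 20 °C), 4.14 ± 0.074 (15 °C constant, 35 °C), 4.15 ± 0.21 (25 °C constant, 20 °C) and 4.18 ± 0.43 (15 °C constant, 20 °C). Each neighbouring pair in this order overlapped, and the order did not follow mean temperature. The *TotB* ranges were apart in 2 contrasts that did not pass: in ramped constant flies the arrays from 25 °C lay at 3.72 to 3.96 and those from 15 °C at 4.07 to 4.22 (adjusted p = 0.19, limma), and the ramped fluctuating flies from 15 °C, at 3.76 to 4.01, also lay below the latter (adjusted p = 0.53).

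*TotF* group means ran from 3.87 ± 0.23 in 15 °C fluctuating flies at 35 °C (n = 2) to 4.31 ± 0.15 in 25 °C constant flies at 35 °C (n = 3). In rising order between them were 4.04 ± 0.053 (15 °C constant, 20 °C), 4.07 ± 0.12 (25 °C fluctuating, 20 °C), 4.08 ± 0.11 (15 °C constant, 35 °C), 4.17 ± 0.20 (15 °C fluctuating, 20 °C), 4.17 ± 0.091 (25 °C fluctuating, 35 °C) and 4.27 ± 0.24 (25 °C constant, 20 °C). Neighbours again overlapped throughout. The *TotF* ranges were apart in 3 contrasts that did not pass, namely both contrasts of mean temperature at 35 °C, with changes of 0.22 and 0.30, and ramping in 15 °C fluctuating flies, with a change of -0.29 (adjusted p = 0.18). As for *TotB*, the share of all probe sets with ranges apart was not counted, so nothing is read from these gaps.

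The group means of *TotE* and *TotZ* spanned less. The *TotE* means were 3.31 ± 0.089 and 3.40 ± 0.15 in 15 °C constant flies at 20 and 35 °C, 3.34 ± 0.076 and 3.42 ± 0.12 in 15 °C fluctuating flies, 3.497 ± 0.16 and 3.51 ± 0.14 in 25 °C constant flies, and 3.43 ± 0.067 and 3.42 ± 0.14 in 25 °C fluctuating flies. In the same order the *TotZ* means were 3.70 ± 0.14 and 3.69 ± 0.11, 3.67 ± 0.086 and 3.77 ± 0.25, 3.76 ± 0.078 and 3.87 ± 0.12, and 3.70 ± 0.071 and 3.81 ± 0.42. No neighbouring groups were apart in either gene, and the widest *TotZ* group was the one that held the array with *TotC* at 12.33.

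*TotB*, the neighbour of *TotC*, had its lowest value of 3.68 on 15 °C constant, 20 °C, replicate 1, and its highest of 4.44 on replicate 2 of the same group. These were also the lowest and highest arrays of that group for *TotC*. In 6 of the 7 groups with 3 arrays the array highest in *TotC* was also the highest in *TotB*, against 5 for *TotF*, 3 for *TotZ* and 1 for *TotE*. The share of all probe sets that match *TotC* as often was not counted. *TotF* lies on another chromosome arm than *TotC*, and *TotB*, *TotF*, *TotZ* and *TotE* all read near or below the low end of the signal. In 25 °C fluctuating flies at 35 °C, the 3 arrays read 3.95, 4.24 and 4.40 for *TotB* and 3.60, 3.55 and 4.29 for *TotZ*, so that replicate 3 was the highest in both, as it was in *TotC*. Turandot genes of the cluster resemble each other in sequence, and the probe sequences were not used here, so how far a probe set also reads its paralogs was not tested.

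**Figure D3:**
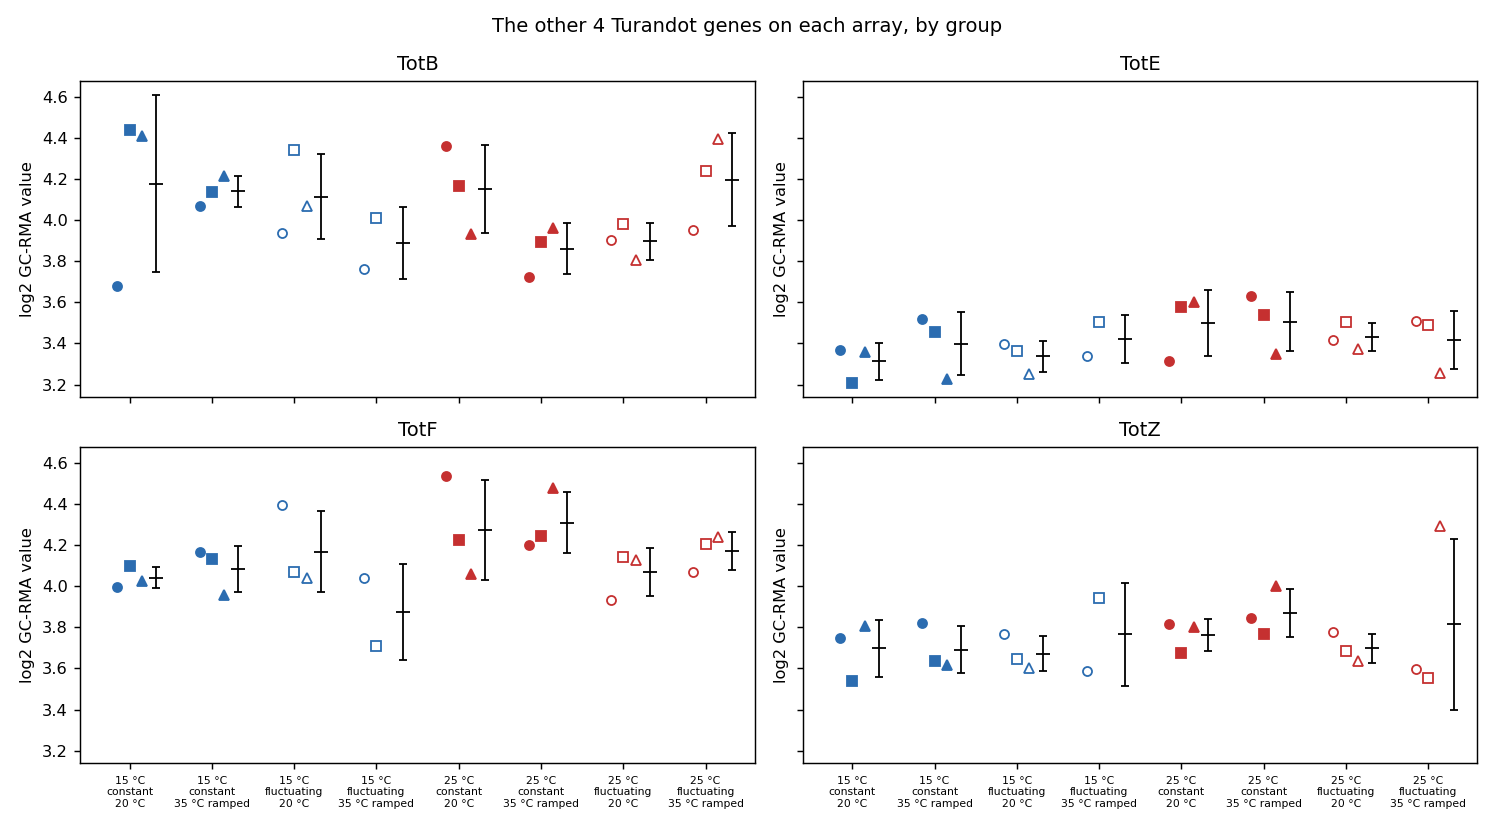
The 4 other members on each of the 23 arrays, on a common log2 axis, with symbols and error bars (mean ± SD) as in the plot of TotC by group. All values lie between 3.21 and 4.54, and the group means of each gene span at most 0.43.

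On the array with *TotC* at 12.33, few other genes stood apart in the same way. Counted were probe sets at least 2 log2 units above both other arrays of their group, a margin chosen after the values had been seen. There were 5 on this array, among them *TotC* with 2 further named genes, *Diedel* and *DptB*. *Diedel* encodes a small secreted protein that dampens immune signalling, and *DptB* encodes the antibacterial peptide Diptericin B, a target of the Imd pathway. The other 2 of the 5 probe sets have no gene symbol in the annotation and are called unnamed probe sets A and B. The array with egg shell transcripts had 84 such probe sets, and the other 19 arrays in groups of 3 had 0 to 2.

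The arrays of 25 °C fluctuating flies at 35 °C read 5.94, 5.76 and 8.04 for *Diedel*. They read 7.36, 7.97 and 10.49 for *DptB*. In unnamed probe set A they read 8.55, 9.02 and 12.11. Replicate 3 was the highest in each. In the other 6 groups of 3 arrays, which this choice did not use, the array highest in *TotC* was also the highest in *Diedel* in 5, in unnamed probe set A in 5, in *DptB* in 4 and in unnamed probe set B in 6. The array lowest in *TotC* was also the lowest in *Diedel* in 5, in unnamed probe set A in 4, in *DptB* in 3 and in unnamed probe set B in 2 of these 6 groups. In 25 °C fluctuating flies at 20 °C, for example, *DptB* read 7.79, 10.67 and 9.84, and replicate 2 was the highest in *TotC* as well (9.35), while replicate 3, lowest in *TotC* (7.75), was not lowest in *DptB*. The share of all probe sets that match *TotC* as often was not counted. These counts thus do not show a link particular to these probe sets. The array on which these probe sets were chosen is 1 of the arrays from 25 °C, so their difference between mean temperatures was taken without it, an alternative added after seeing the data. Averaged over the 4 contrasts, *Diedel* was then higher at 25 °C by 0.78 (adjusted p = 1.6e-05, limma), *DptB* by 1.16 (adjusted p = 0.0011), unnamed probe set A by 1.9998 (adjusted p = 5.2e-08) and unnamed probe set B by 2.13 (adjusted p = 2.5e-06).

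**Figure D4:**
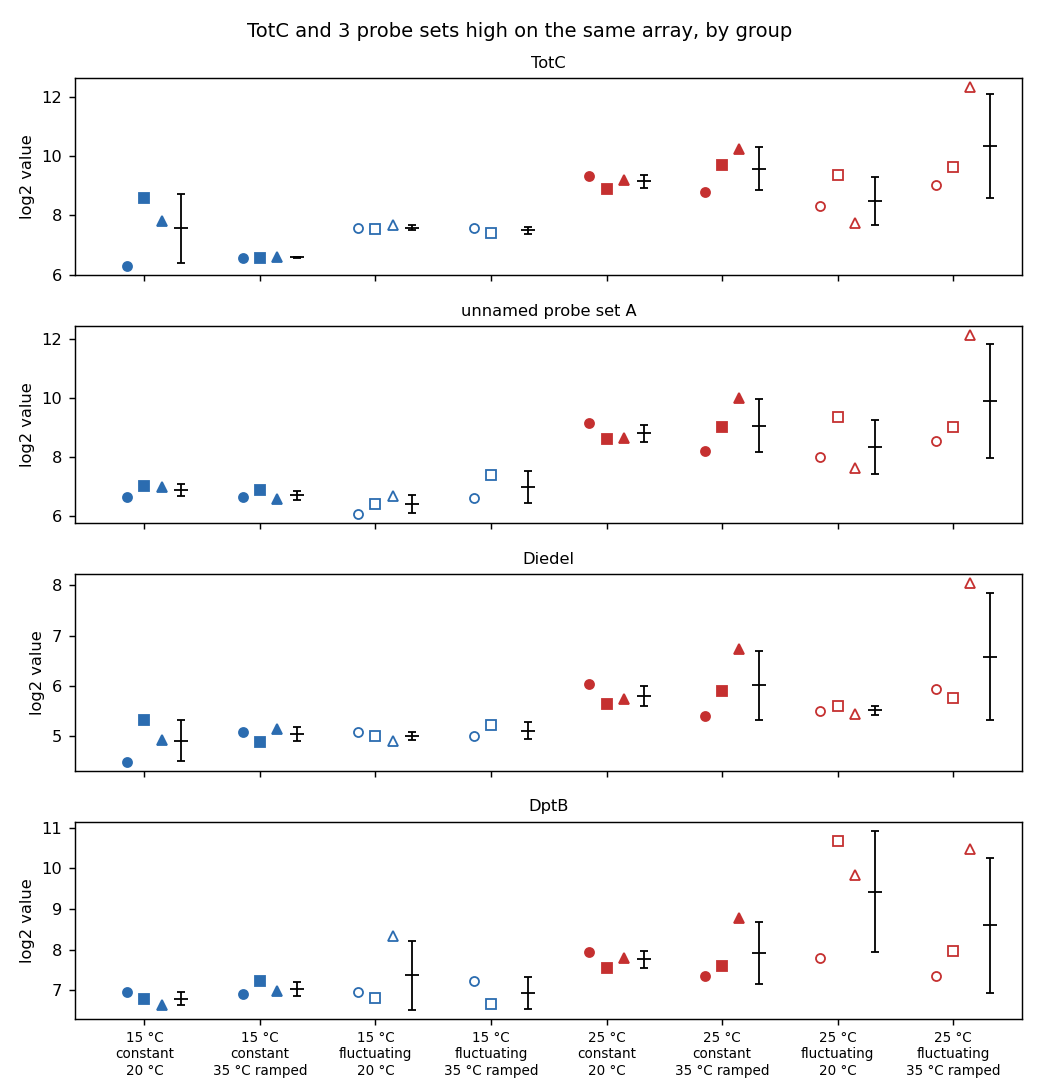
TotC, unnamed probe set A, Diedel and DptB on each of the 23 arrays (log2 GC-RMA values, each panel with its own axis), with symbols and error bars (mean ± SD) as in the plot of TotC by group. Replicate 3 (triangle) of 25 °C fluctuating, 35 °C, is the highest of its group in all 4, at 12.33, 12.11, 8.04 and 10.49.

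The pattern of *TotC* over the groups was compared with that of all other probe sets, by the root mean square difference between group means, each centred on its own mean over the 8 groups. This was done for *TotC* alone, since it was the only member whose group means spanned at least 1 log2 unit. Among probe sets with a single gene symbol, the 3 most like *TotC* were those of *lectin-24A*, a C-type lectin gene, at 0.52 log2 units, *CG8661* at 0.54 and *arg*, which encodes arginase, at 0.54. Averaged over the 4 contrasts they were higher at 25 than at 15 °C by 1.38, 1.86 and 1.88, and their group means spanned 1.99, 2.66 and 2.36, beside the 3.75 of *TotC*. The *lectin-24A* means from 15 °C, at 3.58 to 3.86, lay below the mark taken above for the low end of the signal (3.95 to 4.16), so that its change and span may be understated. The closest of all was unnamed probe set A at 0.36, with a span of 3.50. That probe set was named above for standing high with *TotC* on 1 array (12.11 and 12.33). The same array enters the group means and spans of both, and the likeness without it was not computed. These values describe likeness over 8 groups that share their arrays and normalization, and no test was made of them.

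**Figure D5:**
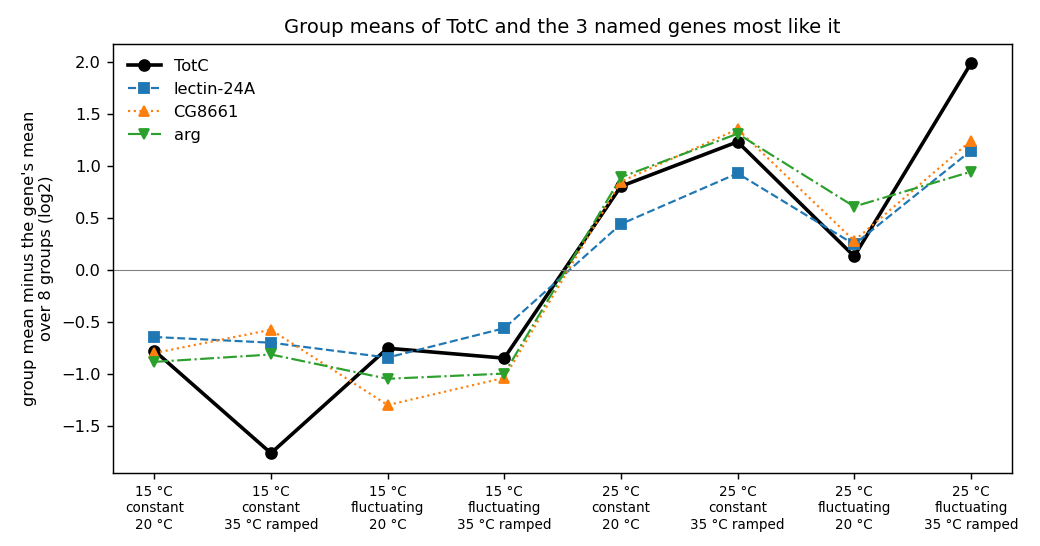
Group means of TotC and of the 3 named genes most like it, each centred on its own mean over the 8 groups (log2 units). All 4 lie below 0 in the groups from 15 °C and above 0 in those from 25 °C, and TotC reaches the lowest and highest points, with a span of 3.75.

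The genes of the pathways that control *TotA* changed with mean temperature mostly by less than 1 log2 unit, and *pirk* and *PGRP-SC2* of the Imd pathway by more. The counts below are read beside the 28.9% of all probe sets called higher and the 27.1% called lower in the mean of the 4 contrasts. Of 12 measured genes of the JAK/STAT pathway, in which Unpaired ligands bind the receptor Domeless, 5 were higher at 25 °C and 2 lower (median 0.055, against 0.0026 over all probe sets). The transcription factor gene *Stat92E* was higher by 0.47 (adjusted p = 6.1e-08, limma), and *Su(var)2-10*, which encodes the pathway's inhibitor PIAS, was lower, with a change of -0.79. The ligand genes *upd1* and *upd2* had changes of -0.035 and -0.039, and the receptor gene *dome* 0.099, none of them called. The arrays read 3.20 to 3.64 for *upd1*, below the low end of the signal, and 4.11 to 4.66 for *upd2*, close to it, so that these values do not show whether the ligands changed. The listed genes *upd3*, *hop* and *Socs36E* had no probe set assigned to them and were not measured. Of 15 genes of the p38 and JNK kinase pathways 13 were higher and 1 lower (median 0.31), among them the kinase genes *p38c*, by 0.87, and *Mkk4*, by 0.57. Of 14 genes of the Imd pathway 8 were higher and 2 lower (median 0.20), with *Rel*, which encodes Relish, up by 0.54, and the negative regulators *pirk* up by 1.02 and *PGRP-SC2* up by 1.41. In the Toll pathway 8 of 13 were higher and 0 lower, and among 6 other stress targets 5 were higher and 0 lower, with *Diedel* up by 0.96 on all 23 arrays and *Mthfs* by 0.93.

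With ramping, where 16.2% of all probe sets were called higher and 17% lower, 10 of 14 Imd genes fell and 1 rose (median -0.19), including *PGRP-LF*, which fell by 1.19, and *pirk*, which fell by 1.11, while in the JAK/STAT list 3 of 12 rose and 1 fell. Of 15 p38 and JNK genes 5 rose and 3 fell, and of 13 Toll genes 3 rose and 3 fell. Among the 6 other stress targets 3 rose and 1 fell (median 0.33). Hemocyte markers moved with the Imd genes, with 7 of 10 lower after ramping and 0 higher (median -0.40), and of 10 fat body markers 4 were lower and 2 higher (median -0.20). The part of these tissues in the fall of the Imd genes was not tested. With fluctuation, where 8.82% of all probe sets were called higher and 6.41% lower, 1 gene of the Imd list fell and 0 rose, and 1 JAK/STAT gene rose and 1 fell. In the p38 and JNK list 1 rose and 2 fell, in the Toll list 0 rose and 0 fell, and of the other stress targets 0 rose and 2 fell. Markers of the fat body moved with mean temperature in the direction of *TotC*, again beside 28.9% of all probe sets higher and 27.1% lower: 9 of 10 were higher at 25 °C and 1 lower, by a median of 0.58, and the mean over the list was 9.75 to 10.19 on arrays from 15 °C and 10.27 to 10.75 on those from 25 °C. Of 10 hemocyte markers 4 were higher and 0 lower, and of 14 accessory gland markers 4 were higher and 8 lower, the 4 higher being near the share of all probe sets. All 10 testis markers were lower (median -0.33), as were all 7 muscle markers (median -1.04). Of 15 egg shell and yolk genes 1 was higher and 0 lower. The part of these tissues in the *TotC* difference was not tested.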

How the data were processed

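RNA of whole males was hybridised by the authors to 24 Affymetrix Drosophila Genome 2.0 arrays. What the authors deposited is a table of log2 expression values made by GC-RMA: background corrected with the probe sequences, normalized between arrays and summarised per probe set with gcrma. Probe intensities were not used here. Groups came from the sample labels. Of 18952 probe sets, 183 controls were left out.

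A limma model (version 3.58.1, R 4.3.3) estimated the means of 8 groups from 23 arrays, without covariates. From this fit came 12 contrasts, 3 means of 4 contrasts and 6 interactions. Every adjusted p is from limma, adjusted by Benjamini-Hochberg within each contrast over 18769 probe sets. A call needs an adjusted p under 0.05, and confidence intervals are at 95%. The fit was tested on simulated data. Leaving out the failed array left 2 in its group. Arrays have no depth, so their number limits the precision. The members and the 12 gene lists were chosen with earlier results of these data known. Of a list, the probe set with the highest mean stands for a gene, and up to 2 called genes per direction and the named core genes of the pathways are given. Genes like *TotC* were the 3 nearest with a symbol. Alternatives were all 24 arrays, 22 arrays, each array left out, the arrays of a contrast alone, a replicate block, 2 rescalings, a filter on low values, a variance trend and array weights. Tables and figures were made in Python 3.11.15 (pandas 2.3.3, matplotlib 3.10.9).

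Replicate numbers were not treated as pairs. Over 33 pairs of arrays with the same number in 2 groups of a contrast, deviations from the group mean had a median correlation over probe sets of 0.0061, against -0.0060 over 66 pairs with different numbers.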

Additional observations from a re-analysis of the deposited data

Results flagged for a closer look

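Signal outside the arrays used in the comparisons was seen on the array left out, 15 °C fluctuating, 35 °C, replicate 3. There 4 of the 5 Turandot genes read above their highest value on the other 23 arrays: *TotB* 6.66 against 4.44, *TotE* 5.98 against 3.63, *TotF* 8.70 against 4.54 and *TotZ* 5.34 against 4.29. *TotC* read 6.64, below the 7.42 and 7.57 of the other 2 arrays of its group. The first quartile of all probe sets was 5.71 on this array, against 3.95 to 4.16 on the others. Low probe sets thus read higher on it in general. Whether the readings of these genes went beyond that was not tested, and *TotF* at 8.70 lay above the array's median of 6.54. The share of all probe sets above their highest value elsewhere was not counted. With this array in the fit, the mean change of *TotF* between mean temperatures was -0.24 (adjusted p = 0.66, limma).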

How the results depend on the processing

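Counts below are calls of Turandot genes by limma. Between mean temperatures (4 contrasts) the count was 3, and became 6 with array weights, where *TotB* and *TotE* were called, 5 with only the arrays of a contrast, 2 on 24 arrays, 2 on 22 arrays (also without that with egg shell transcripts) and 2 to 4 with 1 array left out. The added *TotB* calls ran opposite to *TotC*, lower at 25 °C. With array weights its changes were -0.26 in constant flies at 35 °C and -0.28 in fluctuating flies at 20 °C. With only the arrays of the contrast its change was -0.28 in constant flies at 35 °C. For regimes the count was 0, and 1 with array weights (*TotB*). With ramping it was 1, and 0 on 24 arrays and with only the arrays of the contrast, 3 with array weights, and 0 to 1 with 1 array left out. In the means over 4 contrasts it was 2, and 1 on 24 arrays and with arrays centred on their median, 3 with array weights, and 1 to 2 with 1 array left out. Interactions stayed at 0 in every setting run. The replicate block gave 3, 0, 1, 2 and 0 calls in these 5 counts and changed no call. On 24 arrays the *TotF* difference in the mean over 4 contrasts turned to -0.24. The array added there is the failed one, with *TotF* at 8.70 against 4.04 and 3.71 in its group. Why the other settings moved the counts was not tested. The mean difference of *TotC* between mean temperatures was 1.83 to 2.24 with 1 array left out and 1.80 to 2.15 in the other settings, with adjusted p at most 9.9e-05. Its call in constant flies at 20 °C was lost without any 1 of these arrays: replicates 1 and 3 of 15 °C constant, 20 °C, each array of 25 °C constant, 20 °C (adjusted p = 0.061 to 0.25), each of 15 °C constant, 35 °C, and of 15 °C fluctuating, 20 °C, and replicate 2 of 25 °C constant, 35 °C (0.050 to 0.051). Its ramping call in 25 °C fluctuating flies was lost without the same 7 arrays of other regimes, each array of 25 °C constant, 20 °C, replicates 1 and 3 of its own 20 °C group, and replicate 3 at 35 °C (0.30 at most). The low signal of the other 4 genes limits what can be read from them.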
